A study of Mus musculus with 4 samples.

Results

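Osteoblast-lineage nuclei were a rare population of the dissected brain lesions. They were chosen by their own bone gene counts: a lesional nucleus with at least 757 unique molecular identifiers (UMIs, each standing for 1 captured transcript) belonged to the set when Ibsp, Sp7, Bglap, Bglap2, Tnn, Dmp1, Phex and Mepe together gave 4 or more UMIs, at least 2 of these 8 genes were seen, and Csf1r, Slc17a7, Gad2, Mog, Cd247 and Flt1 together gave at most 1 UMI. This bone rule was met by 56 of 16490 lesional nuclei, of 22905 nuclei in all that reached the UMI minimum. The values of the 8 rule genes therefore describe how the nuclei were picked and are no finding.

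Nuclei came from mouse brain 21 days after a photothrombotic injury, a focal cortical lesion made by illuminating a light-activated dye. Control mice were wild type (WT), and Cxcl12-cKO mice carried Col1a2(creER), a tamoxifen-inducible Cre driven in collagen-producing fibroblasts, with Cxcl12(flox), a conditional allele of a chemokine gene. Each genotype was 1 library of pooled tissue from 1 female and 1 male mouse, with lesion and parenchyma nuclei carrying separate tags and mixed at 75% and 25%. No comparison below has a replicate library, so no test was possible, every interval covers counting error only, and genotype, mouse and library cannot be told apart. Lesions were parted from the skullcap by hand, and whether bone fragments came along was not tested.

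Osteoblasts are the cells that lay down bone. They arise from mesenchymal progenitors under the transcription factors Runx2 and then Sp7 (osterix), secrete type I collagen, and later make osteocalcin, encoded by Bglap and Bglap2, and bone sialoprotein, encoded by Ibsp. Cells buried in the matrix become osteocytes, which express Dmp1, Phex, Mepe, Sost and Fgf23. The skull lies next to the dura, and cells of its sutures and inner surface belong to the same mesenchymal family as meningeal fibroblasts.

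Lesion matrices held 34769874 UMIs in control and 31995274 in Cxcl12-cKO, as the libraries are labelled, with medians of 2941 and 2923 UMIs per kept nucleus. Median depth of the osteoblast-lineage nuclei was 3140.5 UMIs (1159 to 12335, n = 48) in control and 3845.5 UMIs (1490 to 8641, n = 8) in Cxcl12-cKO. Their median mitochondrial share was 0.675% and 0.594%, against 0.288% and 0.306% of all lesional nuclei. The lesion libraries shared 22 barcodes, none of them in the set. Cxcl12 itself did not follow the label: in lesional fibroblasts, defined below, it stood at 101 CPM (UMIs per 1000000 UMIs of the class) in control and 209 CPM in Cxcl12-cKO. The 3′ reads need not cover the deleted part of the gene, so this does not check the genotypes. In the osteoblast-lineage nuclei Cxcl12 gave 3 UMIs in control and 1 in Cxcl12-cKO, and its receptors Cxcr4 and Ackr3 gave none.

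The library labelled control held 48 of the nuclei, 0.577% of 8321 lesional nuclei (exact binomial 95% interval 0.426 to 0.764%). The library labelled Cxcl12-cKO held 8, or 0.0979% of 8169 (0.0423 to 0.193%). The control share was 5.89-fold higher (exact conditional 95% interval 2.76 to 14.4). Both pairs of mice showed this order. Among nuclei assigned to the female mice the shares were 0.636% (22 of 3460) and 0.146% (5 of 3413), a 4.34-fold difference (1.60 to 14.7). Among nuclei of the male mice they were 0.718% (20 of 2786) and 0.117% (3 of 2554), a 6.11-fold difference (1.81 to 32.1). A further 6 control nuclei had sex-linked UMIs of both mice or of neither. Counted against the osteoblast-lineage and fibroblast nuclei alone, the shares were 1.04% and 0.183%. Fewer such nuclei and fewer bone UMIs per nucleus cannot be told apart here.

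**Figure D1:**
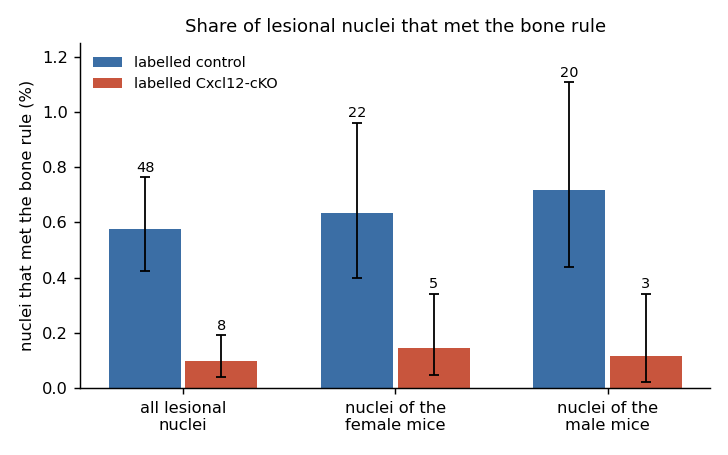
Share of lesional nuclei that met the bone rule (percent, linear axis from 0) for all lesional nuclei and for those assigned to the female and male mice, in the libraries labelled control (blue) and Cxcl12-cKO (red). Error bars are exact binomial 95% intervals for counting error, numbers give nuclei; control is higher in each pair, at 0.577% against 0.0979% over all lesional nuclei.

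No parenchymal nucleus met the rule, 0 of 3228 in control and 0 of 3187 in Cxcl12-cKO. Taken as 3 counts of the total, this allows shares of up to 0.0929% and 0.0941%. The second limit is close to the Cxcl12-cKO lesional share of 0.0979% (0.0423 to 0.193%), so the 0 sets lesion apart from parenchyma in control only. Parenchymal nuclei were deeper, with medians of 17068 and 17925 UMIs. The limit on genes of other cell classes removed 3 lesional and 3 parenchymal nuclei in control, and 0 and 1 in Cxcl12-cKO. Free RNA was read from lesional nuclei expressing Csf1r, a myeloid gene (medians of 2704 and 2884.5 UMIs). In them the 8 rule genes summed to 21.6 and 5.35 CPM. The 2151 and 2771 CPM of the osteoblast-lineage nuclei follow from the rule and are no measure of free RNA. A rule gene was seen in 3.67% and 1.63% of those myeloid nuclei.

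Bglap and Bglap2 together gave the most UMIs of the rule genes in both libraries. In control, Bglap gave 129 UMIs in 26 of 48 nuclei and Bglap2 gave 61 in 22. In Cxcl12-cKO, Bglap gave 14 UMIs in 3 of 8 nuclei and Bglap2 gave 26 in 7, with 14 of these in 1 nucleus. The set held 65.3% and 58.8% of all lesional Bglap and Bglap2 UMIs, a share that the rule itself raises. Bglap, Bglap2 and the neighbouring Bglap3 are near-identical copies, so the split of reads between them is uncertain and their sum is the safer quantity.

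Sp7, the osteoblast transcription factor, gave 61 UMIs in 30 control nuclei and 11 in 6 Cxcl12-cKO nuclei. Tnn, which encodes the matrix glycoprotein tenascin-N, gave 75 UMIs in 21 nuclei and 11 in 3. Ibsp gave 42 UMIs in 16 control nuclei and 30 in 3 Cxcl12-cKO nuclei, of which 1 male nucleus held 25. Phex, an osteocyte endopeptidase, gave only 10 and 8 UMIs, and 1.95% and 2.09% of lesional Phex UMIs. Dmp1 and Mepe were not seen in any of the 56 nuclei. A control nucleus showed 2 to 4 of the 8 genes and a Cxcl12-cKO nucleus 2 to 5.

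At the threshold itself, 9 control and 2 Cxcl12-cKO nuclei had exactly 4 rule UMIs, and 22 and 7 nuclei from at least 2 genes had 3 and stayed out. Runx2 stood at 5718 and 1255 CPM just inside and at 4382 and 4694 CPM just outside. Nuclei with 4 or more UMIs of a single rule gene also stayed out: 27 and 10 had Phex alone, with Runx2 at 568 and 251 CPM, and 9 and 6 had Tnn alone, with Runx2 at 4134 and 2924 CPM.

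Genes outside the rule were set beside the label. Runx2 was seen in 47 of 48 control and 8 of 8 Cxcl12-cKO nuclei. Its detection alone does not set the label, since fibroblasts, defined below, also held 684 and 477 CPM. Runx2 was also seen in 19 of 27 control and 8 of 10 Cxcl12-cKO nuclei with Phex alone. How many fibroblast nuclei had a Runx2 UMI was not counted. Dlx5 and Dlx3, homeobox genes of skeletal cells, gave 11 and 5 UMIs in control and 2 and 1 in Cxcl12-cKO. The osteocyte hormone genes Sost and Fgf23 were at 0 in both libraries, as was Phospho1, a phosphatase that starts mineral deposition. A count of 0 allows up to 3 UMIs in the summed 175705 UMIs of control and 36093 UMIs of Cxcl12-cKO, so low levels of these genes could go unseen. The osteocyte gene list, which includes genes of other cells, was above fibroblasts in sum, with log2 ratios of 1.58 and 1.22. Pdzd2 and Sgcd gave 345 and 209 of its 716 control UMIs, and 25 and 29 of its 106 in Cxcl12-cKO. In Cxcl12-cKO, 1 male nucleus fitted the label least, with 2 Runx2 UMIs and 4 rule UMIs.

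Short stretches of the Bglap, Runx2 and Mmp13 promoters are shown as examples that hold ACCACA, a hexamer that RUNX proteins bind. Bglap is a rule gene, so its level in the nuclei follows from the rule. The sequences are from RefSeq (GRCm38.p6, 5′ to 3′ on the gene's strand), with the hexamer in capitals. Bglap lies at chr3:88384581-88384610 (minus strand) with the hexamer starting at −132 from the start site, Runx2 at chr17:44814690-44814719 (minus strand) at −80, and Mmp13 at chr9:7272384-7272413 (plus strand) at −118.
Bglap: ccgcaatcacctACCACAgcatcctttggg
Runx2: gtgaggtcacaaACCACAtgattctgtctc
Mmp13: attctgccacaaACCACActtaggaagaaa
In windows from 250 bases before to 50 bases after each start, searched on both strands, the hexamer occurred in 18.9% of 27025 genes. It occurred in 3 of the 6 rule genes with a window (Bglap, Dmp1 and Mepe), and Dmp1 and Mepe gave no UMI in the set. Of the genes highest in the nuclei, 2 of 16 (12.5%) held it (Mmp13 and Runx3), a smaller part than of all genes. These matches describe letters only, and the short motif is common.

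The nuclei were next set beside lesional fibroblasts, their most abundant mesenchymal neighbours. These were the 4563 control and 4353 Cxcl12-cKO lesional nuclei with at least 3 UMIs from 2 or more of Pdgfra, Dcn, Lum, Bnc2, Cped1, Col6a3, Svep1 and Ranbp3l, at most 1 rule UMI and the same limit on other classes. Values are log2 ratios of CPM, osteoblast-lineage over fibroblast nuclei of the same library, with 0.5 UMIs added. Of 657 genes with at least 10 UMIs expected in each library if levels were equal, 16 (2.44%) were higher by 2-fold or more in both libraries and 97 (14.8%) were lower. The median gene lay at −0.23 in control and −0.31 in Cxcl12-cKO.

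Runx2 led this comparison. It stood at 5965 CPM in control (female 6700, male 5838) and 5735 CPM in Cxcl12-cKO (female 5316, male 6467), against 684 and 477 CPM in fibroblasts, for log2 ratios of 3.13 (95% interval 3.03 to 3.22) and 3.59 (3.38 to 3.79). The 4 mice lay between 5316 and 6700 CPM, but 1 nucleus held 77 of the 85 Runx2 UMIs of the male Cxcl12-cKO mouse. The type I collagen chains followed. Col1a1 stood at 4263 and 6040 CPM against 694 and 635 CPM, with log2 ratios of 2.62 and 3.25, and 136 of its 218 UMIs in Cxcl12-cKO came from 1 nucleus. Col1a2 stood at 9237 and 5458 CPM against 1948 and 1336 CPM, with log2 ratios of 2.25 and 2.03.

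The other genes higher in both libraries included Fgfr2, a fibroblast growth factor receptor that acts in skull sutures (1.61 and 2.09), Efna5, which encodes the guidance ligand ephrin-A5 (1.67 and 1.66), the receptor phosphatase gene Ptprd (1.40 and 2.46), and Col12a1, a fibril-associated collagen (1.32 and 1.51). Dleu2, Myo1d, Pard3b, Dlg2, Epb41l2, Rrbp1, Asap1 and Naaladl2 were also among the 16. Their log2 ratios lay between 1.01 and 2.26. In Cxcl12-cKO, 1 nucleus held 34 of the 52 Fgfr2 UMIs and 33 of the 49 Col12a1 UMIs.

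That minimum leaves out genes that are rare in fibroblasts. Genes with 10 UMIs expected or seen in the nuclei of each library were therefore added after the values were known, which gave 941 genes, 116 (12.3%) higher in both libraries and 97 (10.3%) lower. The 284 added genes passed only because they were seen often in these nuclei, so 100 of them being higher is a result of how they were admitted and is given without a reading.

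Col22a1 and Smpd3 headed this wider table, followed by Vdr, Insc and Col13a1. Col22a1, a collagen of tissue junctions, stood at 677 CPM in control and 277 CPM in Cxcl12-cKO against 2.84 and 1.60 CPM in fibroblasts (log2 ratios 7.89 and 7.48). Smpd3, whose sphingomyelinase is required for bone mineralisation, stood at 894 and 526 CPM against 7.65 and 4.87 CPM (6.87 and 6.78), although 1 Cxcl12-cKO nucleus held 18 of its 19 UMIs. Col13a1, a transmembrane collagen, stood at 552 and 443 CPM against 16.5 and 13.2 CPM (5.07 and 5.10). Like all of the 25 highest genes of this table, these 3 entered only through their UMIs in the nuclei. Their ratios are therefore given without a reading.

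Some receptors and regulators of bone were also among the 25 highest genes. In rank, Insc, Mlip, Dapk2 and Fat3 came before Pth1r, Lrp4 and Mmp13. Vdr, the vitamin D receptor, stood at 285 and 305 CPM against 7.28 and 5.86 CPM (log2 ratios 5.30 and 5.76). Pth1r, the parathyroid hormone receptor, stood at 285 and 554 CPM against 17.2 and 12.02 CPM (4.06 and 5.56). Lrp4, a receptor for the Wnt inhibitor sclerostin, stood at 1002 and 637 CPM against 82.5 and 44.3 CPM (3.60 and 3.88). Mmp13, the collagenase of bone remodelling, stood at 894 and 2521 CPM against 91.4 and 89.8 CPM (3.29 and 4.82). Fap, which encodes fibroblast activation protein, lay at 3.25 and 3.21, and Lifr, a cytokine receptor gene, at 3.77 and 4.58. Other genes among the 25 highest were Insc, Mlip, Dapk2, Fat3, Slc8a3, Fam78b, Cpa6, Rerg, Lmo7, Tmtc2, Col24a1, Mamdc2, Pdzd2, Runx3 and Postn. In Cxcl12-cKO, 1 nucleus held 60 of the 91 Mmp13, 36 of the 51 Lifr and 28 of the 34 Mamdc2 UMIs.

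The 10 lowest genes included several of meningeal fibroblasts. Trpm3, a cation channel gene abundant in meningeal fibroblasts, stood at 387 and 55.4 CPM against 5228 and 5468 CPM (log2 ratios −3.75 and −6.30), and 61 of its 68 control UMIs came from 1 nucleus. Alcam, a cell adhesion gene, stood at 279 and 139 CPM against 2561 and 1962 CPM (−3.18 and −3.69). A single nucleus held 25 of its 49 control UMIs. Ptgds, the prostaglandin D synthase gene of the arachnoid, stood at 120 and 83.1 CPM against 912 and 896 CPM (−2.90 and −3.21), with 11 of its 21 control UMIs in 1 nucleus. Apod, Fbn1, Col4a2 and Dock5 gave 1 to 16 UMIs per library. Bmp6 and Tll1 gave 8 and 16 UMIs in control and none in Cxcl12-cKO.

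**Figure D2:**
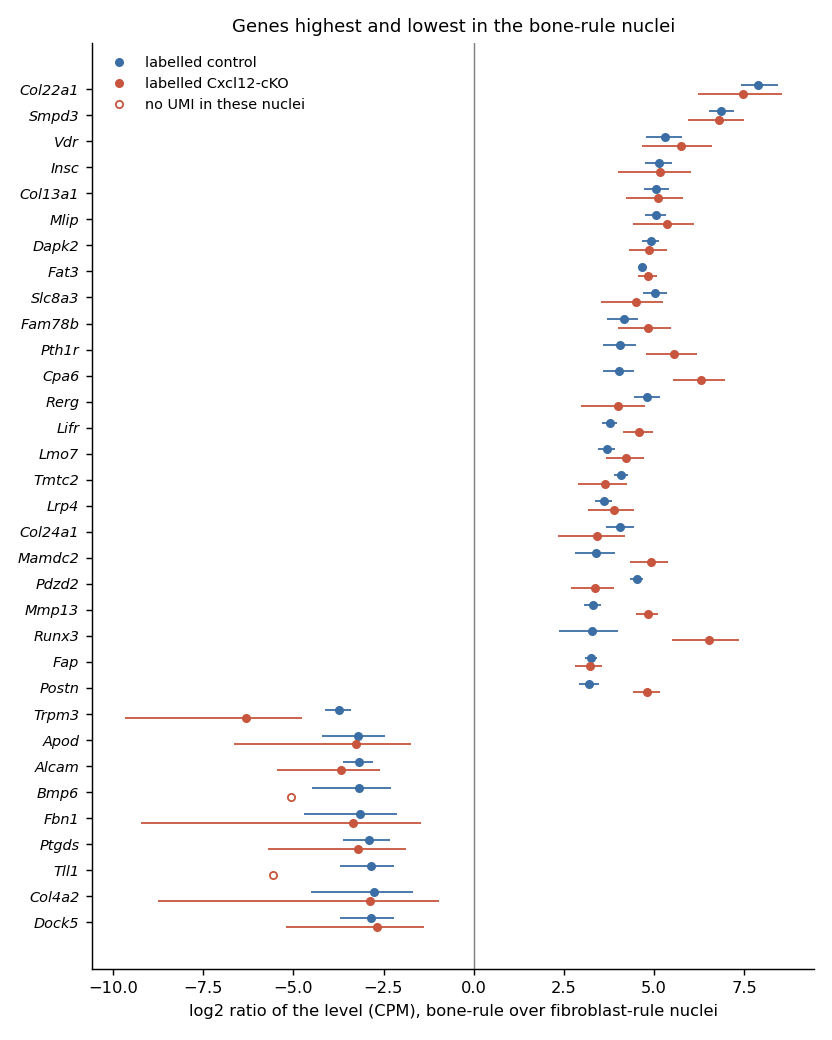
Log2 ratio of the level in osteoblast-lineage nuclei over fibroblast nuclei of the same library, for 24 of the 25 highest genes under the wider minimum and 9 of the 10 lowest, in the libraries labelled control (blue) and Cxcl12-cKO (red). Lines are exact conditional 95% intervals for counting error and open circles mark genes with no UMI in the Cxcl12-cKO nuclei, whose position rests on the 0.5 UMIs added; Col22a1 lies highest in both libraries, at 7.89 and 7.48.

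Gene lists of skeletal biology were read by their counts under the wider minimum, beside the 12.3% of all genes that were higher and with the same reservation about how genes were admitted. Of 20 osteoblast transcription factor genes, 8 passed and 5 were higher, among them Runx2, Runx3, Vdr and Mef2c (log2 ratios 2.83 and 2.65). Of 25 bone matrix genes, 15 passed and 11 were higher, among them Tnc (tenascin-C, log2 ratios 3.02 and 4.16), Sparc (osteonectin, 2.47 and 3.19) and Spp1 (osteopontin, 1.45 and 3.65). Spp1 rested on 19 and 29 UMIs, 27 of the latter in 1 nucleus, and 1 Cxcl12-cKO nucleus held 56 of the 81 Sparc UMIs. Of 26 mineralisation genes, 6 passed and 2 were higher, Smpd3 and Alpl, the tissue-nonspecific alkaline phosphatase (2.49 and 4.31, with 17 of 22 Cxcl12-cKO UMIs in 1 nucleus).

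Signalling and precursor lists were counted in the same way. Of 22 hormone and osteoclast-coupling genes, 10 passed, 4 were higher (Vdr, Pth1r, Mmp13 and Mmp2) and Igf1 was lower. Tnfsf11, the osteoclast-inducing ligand RANKL, gave 1 UMI in each library. Of 24 Wnt genes 3 passed and 1 was higher (Lrp4), and of 25 BMP genes 5 passed, with Smad6 and Bmp1 higher and Bmp6 lower. Of 22 skeletal progenitor and suture genes, 6 passed and 3 were higher (Postn, Fgfr2 and Cdh2). Of 19 osteocyte genes, 4 passed and 2 were higher, Pdzd2 and the gap junction gene Gja1 (1.72 and 2.92). Of 17 cartilage genes 2 passed and 1 was higher, Sox6 (2.86 and 2.05), while Col2a1 and Sox9 were at 0.

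Lists of other cell types lay on both sides of their level in fibroblasts. Both leptomeningeal fibroblast genes that passed, Slc47a1 and Bmp6, were lower, as were Slc47a1 as the 1 dural fibroblast gene that passed and both astrocyte genes. Of 9 late inner fibroblast genes 3 passed, with Kcnma1 higher and Col8a1 lower. The 16 neutrophil and erythroid marrow genes summed to 0 and 1 UMIs, 8 endothelial genes to 4 and 1, and 10 dividing-cell genes to 15 and 1, with 9 of the 15 in 1 nucleus (85.4 against 26.2 CPM in control fibroblasts). The 11 osteoclast genes summed to 19 and 5 UMIs with Acp5, which encodes the osteoclast acid phosphatase, at 0. Myeloid genes summed to 45 and 30 UMIs, of which 20 in Cxcl12-cKO were Mrc1 in a single nucleus (831 against 348 CPM), and oligodendrocyte genes to 42 and 4, of which 35 lay in a single control nucleus (239 against 150 CPM). The T and B cell list stood at 950 and 582 CPM against 415 and 536 CPM in fibroblasts (log2 ratios 1.20 and 0.15). Ebf1, a transcription factor gene of B cells that mesenchymal cells also express, gave 165 of the list's 167 control UMIs and all 21 in Cxcl12-cKO. Mural genes stood at 330 and 360 CPM against 199 and 241 CPM (0.74 and 0.63).

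Some of these lists also differed between the libraries outside the set. In the remaining lesional nuclei the osteoclast genes stood at 239 CPM in control and 394 CPM in Cxcl12-cKO, the marrow genes at 55.2 and 15.0 CPM, and the neuron genes at 2752 and 1654 CPM. Their part in the difference in share was not tested.

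**Figure D3:**
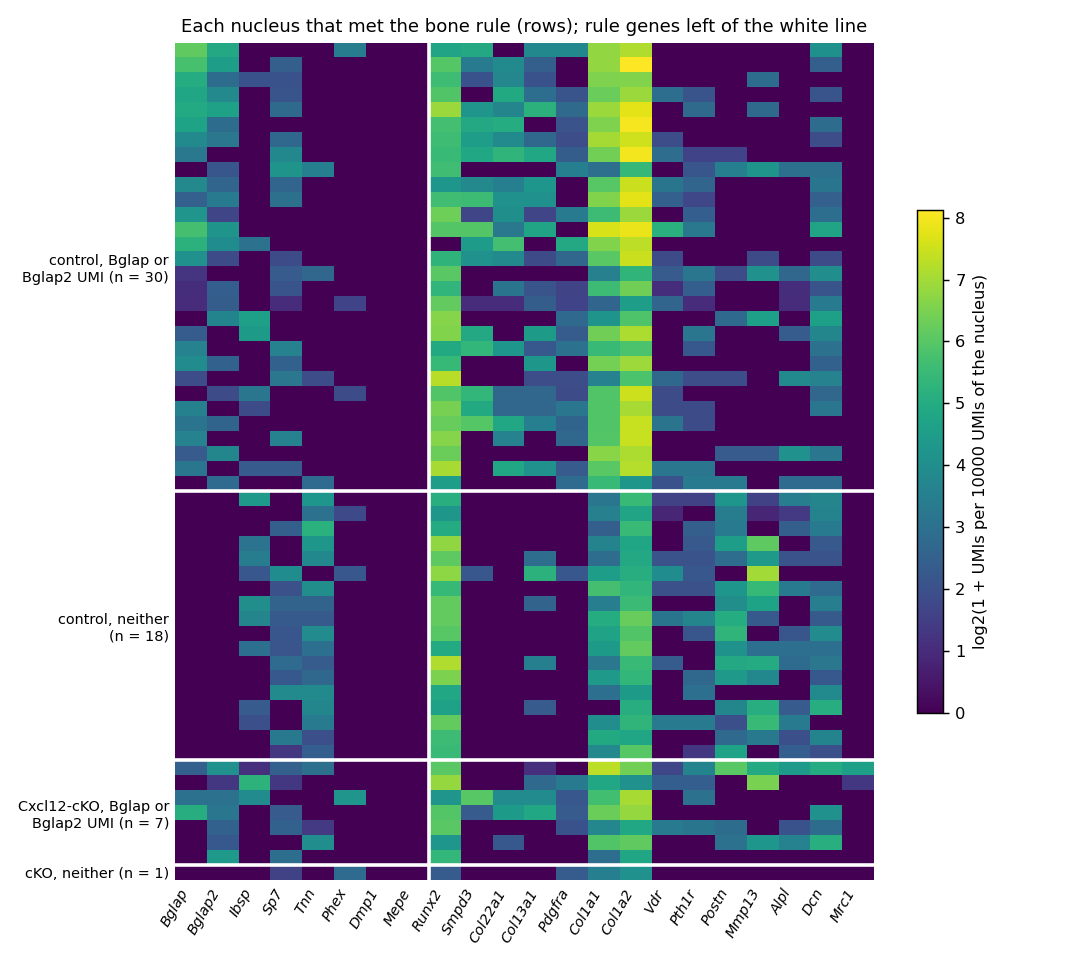
UMIs per 10000 UMIs of the nucleus (colour, log2 scale after adding 1) for each of the 56 nuclei in rows, split by library and by whether a Bglap or Bglap2 UMI was seen (30 and 18 control, 7 and 1 Cxcl12-cKO nuclei), with the 8 rule genes left of the white vertical line and 14 other genes right of it. Runx2 is filled in nearly every row, Dmp1 and Mepe are empty, and Smpd3, Col22a1 and Pdgfra fill mostly the rows with osteocalcin UMIs while Postn and Mmp13 fill mostly the control rows without.

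The control nuclei were then split by osteocalcin. At least 1 Bglap or Bglap2 UMI was seen in 30 of them (14 female, 14 male, 106283 UMIs in all) and none in 18 (8 female, 6 male, 69422 UMIs). This split was chosen after the nuclei had been seen, and the bone rule shapes it: a nucleus without osteocalcin had to reach 4 UMIs through Tnn, Sp7, Ibsp or Phex. Tnn, for example, gave 65 UMIs in the 18 nuclei and 10 in the 30. Of 1504 genes with enough UMIs, 191 (12.7%) were higher by 2-fold or more in nuclei with osteocalcin and 167 (11.1%) were lower.

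Matrix genes went both ways in this split. In nuclei with osteocalcin, Col22a1 gave 119 UMIs in 21 nuclei against 0, Smpd3 156 UMIs in 19 nuclei against 1 UMI, and Col11a2, which encodes a chain of type XI collagen, 162 UMIs in 23 nuclei against 1. Both mice showed this: 46 female and 70 male UMIs of Col22a1, 57 and 77 of Smpd3, and 60 and 92 of Col11a2. Col1a1 stood at 6022 CPM with osteocalcin and 1570 CPM without (log2 ratio 1.93, interval 1.64 to 2.25), Col1a2 at 12570 and 4134 CPM (1.60, 1.42 to 1.79), and Sparc at 1995 and 691 CPM (1.52, 1.07 to 2.01). Pdgfra, a growth factor receptor gene used to define fibroblasts, gave 42 UMIs in 22 nuclei against 1.

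Other extracellular genes were higher in control nuclei without osteocalcin. Postn, which encodes periostin of the periosteum and sutures, stood at 1613 CPM without and 113 CPM with osteocalcin (log2 ratio of with over without −3.78, −4.83 to −2.98). Tnc stood at 2305 and 517 CPM (−2.15, −2.62 to −1.70), Mmp13 at 1887 and 245 CPM (−2.93, −3.61 to −2.33), and Edil3, which encodes an integrin-binding matrix protein, at 1657 and 226 CPM (−2.85, −3.57 to −2.23). Col27a1, a fibrillar collagen gene, gave 43 UMIs in 16 of the 18 nuclei against 3. Pdzrn4 stood at 9536 and 790 CPM. Each of these 6 genes was higher without osteocalcin in the female and in the male control mouse. In Cxcl12-cKO the split could not be compared, since only 1 nucleus had no osteocalcin UMI, the one that fitted the label least. That nucleus held no Postn, Mmp13 or Tnc UMI. The 7 with osteocalcin held all 62 Postn, 91 Mmp13 and 58 Tnc UMIs (1987, 2916 and 1859 CPM). Single nuclei held 56 of the Postn and 60 of the Mmp13 UMIs.

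Runx2 and Fap did not separate the nuclei, at 6125 against 5719 CPM (0.10, −0.08 to 0.28) and 2211 against 2175 CPM (0.02, −0.28 to 0.33). Sp7 gave 40 and 21 UMIs (0.30, −0.48 to 1.15). Alpl stood at 188 CPM with and 375 CPM without osteocalcin (−0.98, −1.91 to −0.10). Lipc, a lipase gene, gave 35 against 0 UMIs in the female and 12 against 5 in the male. The male log2 ratio lay at −0.13, and 1 nucleus held all 5.

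**Figure D4:**
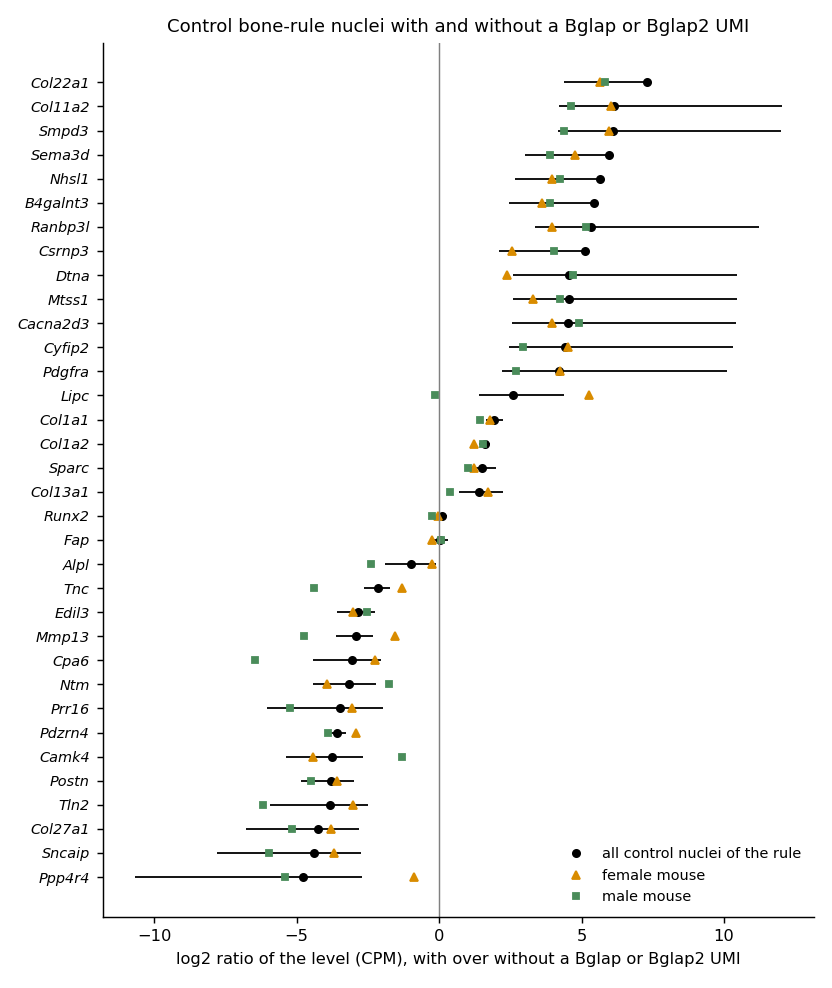
Log2 ratio of the level in control nuclei with over without a Bglap or Bglap2 UMI, for all 48 nuclei (black, with exact conditional 95% intervals for counting error) and for the female (orange) and male (green) mouse; 12 genes at either end with the same direction in both mice and 10 further genes are shown. Where a gene has no UMI on one side, the point rests on the 0.5 UMIs added and its line runs only to the lower bound; Col22a1 lies highest and Ppp4r4 lowest.

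The nuclei were also compared between the libraries. Ratios are log2 of CPM in Cxcl12-cKO over control. Of 657 genes with at least 10 UMIs expected in the smaller library, 34 (5.18%) were higher by 2-fold or more in Cxcl12-cKO and 66 (10.0%) were lower, and the median gene lay at −0.09. Direction was the same in both pairs of mice for 80 of these 100 genes and for 320 of all 657. The 100 genes were called on pooled UMIs that include those of both pairs, which by itself raises their agreement. Runx2 lay at −0.05 (−0.28 to 0.16) and Vdr, with 11 Cxcl12-cKO UMIs, at 0.15 (−0.99 to 1.06). Only 8 nuclei carried the Cxcl12-cKO side, 5 of the female and 3 of the male mouse.

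Among the genes lower in Cxcl12-cKO were those of collagen XI and N-cadherin. Prkg1 (−2.03) and Unc5c (−1.92) ranked between Col11a2 and Col11a1. Col11a2 gave 163 UMIs in 24 control nuclei and 5 in 2 Cxcl12-cKO nuclei (−2.61, −4.39 to −1.49), and Col11a1 gave 340 in 42 and 22 in 5 (−1.64, −2.36 to −1.04). Cdh2, the N-cadherin gene, gave 235 UMIs in 38 nuclei and 15 in 5 (−1.64, −2.55 to −0.93). The male Cxcl12-cKO nuclei gave 0 Col11a2, 2 Col11a1 and 4 Cdh2 UMIs. Prkg1, Unc5c, Cadm1, Farp2, Pdzd2 and Fgf13 were also among the 10 lowest genes with the same direction in both pairs of mice, between −2.03 and −1.43. Cadm1 and Pdzd2 turned to 0.12 and 0.36 when Bglap and Bglap2 were left out of the rule.

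Kcnab1, a potassium channel subunit gene, lay highest, with 66 UMIs in 20 control nuclei and 53 in 6 Cxcl12-cKO nuclei (1.97, 1.42 to 2.51). Of these 53, 22 came from 1 nucleus. Gnas, which encodes the stimulatory G protein through which the parathyroid hormone receptor signals, gave 80 UMIs in 31 nuclei and 52 in 6 (1.67, 1.13 to 2.18), but 35 of the 52 came from 1 nucleus, and female mice gave 0.54 against 2.46 for male mice. Mmp13 lay at 1.50 (1.11 to 1.88), but 60 of its 91 Cxcl12-cKO UMIs came from 1 male nucleus. Exoc4, Kirrel, Zeb1, Col6a3, Setbp1, Pid1 and Antxr1 followed, between 0.74 and 1.35, with 29 of 45 Pid1 UMIs in 1 Cxcl12-cKO nucleus. Single Cxcl12-cKO nuclei also held 25 of 71 Exoc4, 24 of 57 Setbp1, 20 of 51 Antxr1 and 19 of 45 Col6a3 UMIs. For Kirrel and Zeb1 they held 16 of 49 and 12 of 41.

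Single nuclei weighed heavily on the Cxcl12-cKO levels of several bone genes. One female nucleus of 8641 UMIs held 29 of the 100 rule UMIs, 136 of 218 Col1a1 UMIs and 56 of 62 Postn UMIs, as well as the 20 Mrc1 UMIs. Postn lay at 1.29 over all nuclei, at 1.86 in the female mice and had no UMI in the male Cxcl12-cKO nuclei. Among the lists, 3 of the 13 bone matrix genes that passed were lower (Col11a1, Col11a2 and Col22a1) and Postn was higher, with a median of −0.27. Of 4 mineralisation genes Alpl and Ank, the pyrophosphate transporter gene, were higher, with 22 and 31 UMIs, of which single nuclei held 17 and 28. Ank lay at −1.38 for female and 3.36 for male mice, and Alpl had no UMI in the male Cxcl12-cKO nuclei. Bglap lay at −0.88 and Bglap2 at 1.07, but their sum stood at 1081 and 1108 CPM.

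By the rule genes that chose them, 7 of 8 Cxcl12-cKO and 30 of 48 control nuclei had a Bglap or Bglap2 UMI, which describes the set and not the libraries. Col11a2 and Col22a1, which were lower in Cxcl12-cKO, were also lower in the control nuclei without osteocalcin. The part of this mix in the differences between libraries was not tested.

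**Figure D5:**
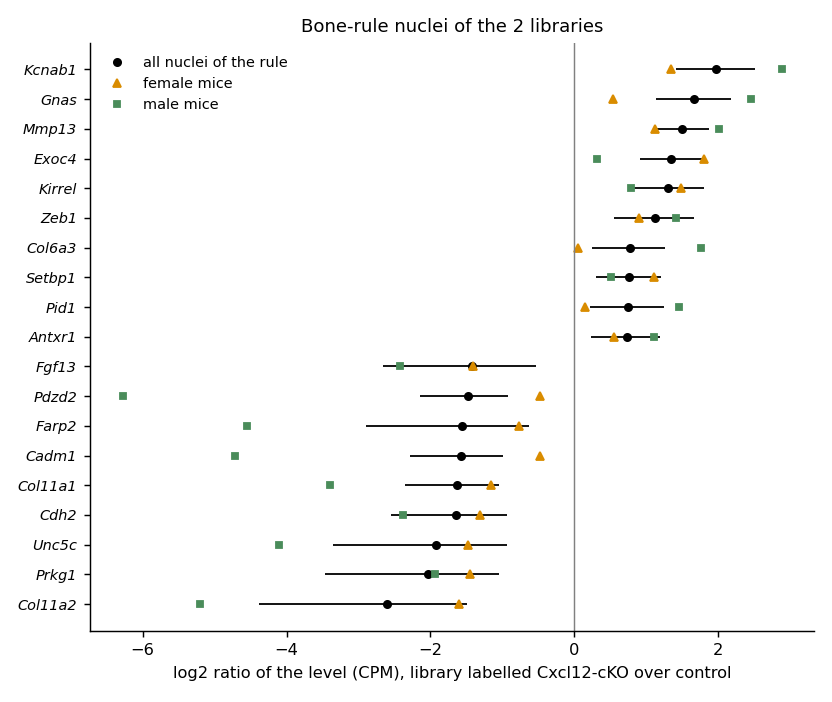
Log2 ratio of the level in the osteoblast-lineage nuclei, library labelled Cxcl12-cKO over library labelled control, for the 10 highest and 9 of the 10 lowest genes that had the same direction in both pairs of mice. Black points with lines are all nuclei with exact conditional 95% intervals for counting error, orange triangles the female and green squares the male mice; male points beyond −4 rest on 0 or 1 UMIs in 3 Cxcl12-cKO nuclei and on the 0.5 UMIs added, and Kcnab1 (1.97) and Col11a2 (−2.61) mark the ends.

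The difference in share was also looked for outside the set with genes that the rule did not use. Col22a1, Vdr, Insc, Col13a1, Dapk2 and Pth1r were higher by 16-fold or more in the nuclei of both libraries and stood under 10 CPM in parenchymal nuclei expressing Slc17a7, a neuron gene. Lesional nuclei outside the set with 4 or more UMIs from at least 2 of these 6 genes, under the same limit on other classes, numbered 131 in control (1.57%, 1.32 to 1.87%) and 47 in Cxcl12-cKO (0.575%, 0.423 to 0.764%), a 2.74-fold difference (1.95 to 3.90). The female mice gave 63 and 19 and the male mice 48 and 18, and 1 parenchymal nucleus was found in each library. The genes were taken from these same libraries for being high in the set, so this count is no independent check of the share. Within the set their log2 ratios of Cxcl12-cKO over control were −1.23 (Col22a1), −0.67 (Insc), −0.39 (Dapk2), −0.28 (Col13a1), 0.15 (Vdr) and 0.98 (Pth1r). The part of these levels in the count was not tested. The 2 gene sets tried earlier gave smaller differences: 268 against 112 nuclei with 14 genes picked by eye, and 767 against 598 with 13 genes that also took in 434 and 500 parenchymal nuclei.

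These further nuclei were not alike in the libraries. Runx2 stood at 5287 CPM in the 131 control nuclei and 1441 CPM in the 47 Cxcl12-cKO nuclei, and 53 and 30 of them had no rule-gene UMI. Of the osteoblast-lineage nuclei themselves, 37 of 48 and 5 of 8 met the rule of the 6 genes.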

How the data were processed

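Nuclei were captured with 10x Chromium 3′ chemistry. The deposited values were whole-number UMI counts per gene and nucleus, which the authors made with Cell Ranger 9.0.0 on GRCm39, per the submitters' processing notes, and split by region through the tags. Nothing was normalized. For intronic reads the counting is not stated.

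The UMI minimum of 757 was the 2.5th percentile over all barcodes. UMIs were summed per class and library and scaled to CPM. Mice were told apart by sex-linked UMIs. No doublet caller was run, and 2 control nuclei of the set had UMIs of both sexes. Named genes were the 25 highest and 10 lowest over fibroblasts, the 10 highest and 10 lowest between libraries among genes with 20 expected UMIs and 1 direction in both pairs of mice, and list members with most UMIs or past 2-fold. Of the genes so named, 3 are not reported here. Other genes named were chosen after their values were seen. The members and the 28 gene lists were chosen with earlier results of these data known. The ratio script was tested on simulated data. Tables were made with pandas 2.3.3 and NumPy 2.4.6 in Python 3.11.15, intervals with SciPy 1.17.1 and plots with matplotlib 3.10.9.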

Additional observations from a re-analysis of the deposited data

Results flagged for a closer look

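In osteoblast-lineage nuclei, the summed bone matrix list went opposite ways in the mice, with a log2 ratio of Cxcl12-cKO over control of 0.31 in female mice and −1.37 in male mice. The skeletal progenitor and suture list did the same, at 0.50 in female and −0.72 in male mice. Neither difference between the pairs of mice was tested. They rest on 5 female and 3 male Cxcl12-cKO nuclei, and 1 female nucleus held 436 of the 881 bone matrix UMIs.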

How the results depend on the processing

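The log2 ratio of the shares (Cxcl12-cKO over control, −2.49) lay between −2.78 and −2.01 in 15 of 18 alternatives, which included other rule sums, rules without Phex, Tnn or both osteocalcin genes, other limits on cells, thinning to equal depth and either pair of mice alone. It moved for nuclei outside the set chosen by other genes, all 3 sets picked after seeing the data: −1.23 with the first, 14 genes picked by eye (268 and 112 nuclei), −0.33 with the second, 13 genes that also took in 434 and 500 parenchymal nuclei (767 and 598), and −1.44 with the 6 genes reported (131 and 47). The number of genes past 2-fold between libraries (100) lay between 73 and 146 in 14 of 18 alternatives, and was 61 in male mice only, 297 with an expected minimum of 5 UMIs, 34 with 20 and 4659 with none. The number past 2-fold over fibroblasts in both libraries (113) lay between 87 and 131 in 13 of 20, and was 183 with a rule sum of 3, 75 in female and 29 in male mice only, 228 with a minimum of 5, 53 with 20, 9502 with none and 213 with the wider minimum. These counts follow how many genes were let in. Reversed values were Cadm1 at 0.12 and Pdzd2 at 0.36 between libraries without Bglap and Bglap2 in the rule, and, over fibroblasts in Cxcl12-cKO male mice only, Col12a1 at −0.44, Epb41l2 at −1.56, Pdzd2 at −0.80 and Postn at −0.60; the cause was not tested. Of all values of single genes in the alternatives, 1841 of 1920 over fibroblasts and 283 of 320 between libraries kept their side of the 2-fold limit. A further 75 and 35 crossed it, and 4 and 2 were the reversed values named above. No paired analysis was possible because each genotype was 1 library, so no fit over replicates exists. Depth limited most values, since 8 nuclei with 36093 UMIs made up the Cxcl12-cKO side.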
